A study of Mus musculus with 4 samples.

Results

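The clustered histone genes are the many small genes that supply the nucleosome core histones H2A, H2B, H3 and H4 and the linker histone H1 during DNA replication. The 68 gene symbols described here were all those whose name begins with Hist1h, Hist2h, Hist3h or Hist4h, of 22492 symbols in all, a choice by name that used no measured value. They occupied 73 rows with a genomic interval of 22892, because 5 symbols were listed at 2 positions each. By histone type they were 6 H1, 18 H2a, 19 H2b, 12 H3 and 13 H4 symbols.

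The samples were mouse embryonic stem cells of the E14Tg2a line. TetTKO cells carried CRISPR mutations of Tet1, Tet2 and Tet3, the enzymes that oxidise 5-methylcytosine, and WT cells were the E14 line without these mutations. TetTKO cells came from picked clones screened for mutations and for 5-hydroxymethylcytosine, after transient transfection in 2i medium and puromycin selection. The labels do not say how many clones entered a library. Both genotypes were then moved to serum (15%) with LIF (1000 units/ml) for 17 days or longer. Each genotype had 1 RNA-seq library and 1 whole-genome bisulfite sequencing (WGBS) library, so no difference below has a replicate check and no p-value is given.

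Most of these genes are known as replication-dependent: their transcription and mRNA stability rise in S phase, when new DNA has to be packaged. Their mRNAs as a rule end in a stem-loop bound by SLBP instead of a poly(A) tail, and their transcription is concentrated in histone locus bodies that contain NPAT. The RNA libraries were made from total RNA depleted of ribosomal RNA, so they did not depend on a poly(A) tail. A few members are made chiefly in the male germ line: Hist1h1t encodes the testis linker histone H1T, and Hist1h2aa and Hist1h2ba encode the testis variants TH2A and TH2B. Embryonic stem cells cycle fast and spend a large share of their time in S phase.

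RNA levels are given as FPKM, fragments per kilobase of transcript scaled to library size, which corrects for gene length. Tet1 had 4.36 FPKM in TetTKO and 15.1 in WT, Tet2 had 4.13 in TetTKO and 14.9 in WT, and Tet3 was at 0.27 in TetTKO and 0.32 in WT, too low in both to check the label. All 7 stem cell markers examined were measured, and 6 of them were lower in TetTKO, with a median log2 difference of -0.15. The largest differences were at Esrrb, 26.4 FPKM in TetTKO and 49.3 in WT, and Nanog, a gene on chromosome 6, with 71.0 in TetTKO and 116 in WT, and the part of this shift in the histone values was not tested. The summed level of 7 fibroblast markers was 2.62 FPKM in TetTKO and 1.88 in WT. The 5 primitive endoderm markers summed to 31.2 FPKM in TetTKO and 8.28 in WT, and all 5 were higher in TetTKO. Most of the sum was Col4a1, with 25.35 FPKM in TetTKO and 6.44 in WT. Dab2, Gata4, Gata6 and Sox17 were low, between 1.06 and 2.13 FPKM in TetTKO and between 0.30 and 0.72 in WT. Chromosome 6, which carries Hist4h4, stood apart between the libraries: its WGBS coverage was 0.982 times that of the median autosome in TetTKO and 1.34 times in WT, and 282 of its 310 genes of at least 5 FPKM were lower in TetTKO. The WGBS libraries held 150132176 CpG read calls in TetTKO and 132794183 in WT over 14323377 listed CpGs, with a median coverage of 10 in TetTKO and 8 in WT.

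The members fell into separate groups along the genome (mm9 build). The Hist1 cluster on chromosome 13 held 54 symbols in 4 groups more than 100 kb apart. Group 1, chr13:21807632-21929399, held 18 symbols. Group 2, chr13:22127035-22135479, held 5. Group 3, chr13:23622913-23856283, held 29. Group 4, chr13:24025642-24026720, held only the testis-type pair Hist1h2ba and Hist1h2aa, which lie 305 bp apart. The Hist2 cluster, chr3:96023839-96074115, held 10 symbols and the Hist3 cluster, chr11:58762413-58770176, held 3. Hist4h4 stood alone at chr6:136750074-136752952.

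All 68 symbols matched a RefSeq gene through its listed synonyms, and 62 had a RefSeq promoter sequence (GRCm38.p6 build, coordinates not interchangeable with mm9). The 250 bases upstream of the start were searched on both strands for 5 motifs described at histone genes: the octamer ATTTGCAT read by POU factors such as OCT1, the CCAAT box, the TATA box as TATAAA, the H1 box as AAACACA, and the core of the human H4 element as GGTCCG. In 1 member promoter, motifs overlapped each other. The octamer was in 7 of 18 H2a and 7 of 17 H2b promoters, in no H1, H3 or H4 promoter, and in 1.60% of all 32851 promoters. The CCAAT box was in all 6 H1, 18 H2a and 17 H2b promoters, in 8 of 10 H3 and in 3 of 12 H4 promoters, against 33.9% of all promoters. The H4 core was in 9 of 12 H4 promoters against 6.72% of all promoters, the H1 box in 5 of 6 H1 promoters against 6.25%, and TATAAA in 29 of 63 member promoters against 12.4%. Promoter stretches of adjacent H2a and H2b genes can overlap, as at Hist1h2aa and Hist1h2ba, so the same site can be counted for both genes. A match describes letters and is not a measured binding site.

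The sequences that follow show the promoters of the members on which the results turn: the stretch between the testis-type pair, Hist1h1t, and the member with the highest RNA level of H1, H2b, H3 and H4. Each is given 5′ to 3′ with capitals marking the motifs named above on either strand, and the stretch between the pair serves both genes, its ends being their RefSeq starts, 280 bases apart.
Hist1h2ba to Hist1h2aa, chr13:23934157-23934436, plus strand: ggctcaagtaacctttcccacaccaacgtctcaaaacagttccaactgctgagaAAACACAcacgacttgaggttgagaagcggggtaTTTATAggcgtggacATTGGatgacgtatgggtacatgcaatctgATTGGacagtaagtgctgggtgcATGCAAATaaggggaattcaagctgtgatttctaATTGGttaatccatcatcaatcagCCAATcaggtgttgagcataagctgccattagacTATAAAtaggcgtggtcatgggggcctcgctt
Hist1h1t, chr13:23695561-23695810, plus strand: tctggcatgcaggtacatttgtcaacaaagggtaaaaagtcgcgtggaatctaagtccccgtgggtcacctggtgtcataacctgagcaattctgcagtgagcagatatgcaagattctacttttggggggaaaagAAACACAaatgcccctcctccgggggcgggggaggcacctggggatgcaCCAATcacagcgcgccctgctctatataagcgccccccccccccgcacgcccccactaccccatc
Hist1h1a, chr13:23763418-23763667, plus strand: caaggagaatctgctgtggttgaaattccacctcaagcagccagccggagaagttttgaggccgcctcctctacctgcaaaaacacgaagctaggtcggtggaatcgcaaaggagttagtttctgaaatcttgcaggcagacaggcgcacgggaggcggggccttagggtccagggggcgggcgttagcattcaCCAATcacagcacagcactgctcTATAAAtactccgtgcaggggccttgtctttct
Hist2h2bb, chr3:96269450-96269699, plus strand: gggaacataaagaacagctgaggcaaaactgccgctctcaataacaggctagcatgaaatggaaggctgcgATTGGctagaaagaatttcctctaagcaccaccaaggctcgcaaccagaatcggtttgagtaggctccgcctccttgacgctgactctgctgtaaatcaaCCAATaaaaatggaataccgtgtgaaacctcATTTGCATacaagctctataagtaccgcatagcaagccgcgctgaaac
Hist1h3g, chr13:23535168-23535417, plus strand: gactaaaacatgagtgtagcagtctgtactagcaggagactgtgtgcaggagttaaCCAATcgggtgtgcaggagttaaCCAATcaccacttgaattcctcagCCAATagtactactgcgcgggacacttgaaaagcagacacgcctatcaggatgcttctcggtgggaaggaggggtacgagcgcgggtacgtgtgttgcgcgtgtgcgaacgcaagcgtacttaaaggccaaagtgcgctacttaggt
Hist1h4m, chr13:21811496-21811745, plus strand: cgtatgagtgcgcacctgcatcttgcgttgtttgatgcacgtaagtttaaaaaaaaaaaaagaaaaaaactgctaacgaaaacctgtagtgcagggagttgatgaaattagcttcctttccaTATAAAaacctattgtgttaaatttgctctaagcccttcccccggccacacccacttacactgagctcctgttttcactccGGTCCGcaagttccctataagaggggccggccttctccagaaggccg
The stretch between Hist1h2ba and Hist1h2aa held 1 octamer, 4 CCAAT boxes, 2 TATA boxes, 1 H1 box and 7 CpGs. The Hist1h1t promoter held 1 CCAAT box, 1 H1 box and 10 CpGs.

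Summed over all members, histone RNA was 21116 FPKM in TetTKO and 24622 FPKM in WT, a ratio of 0.858. Of the 68 symbols, 58 reached 1 FPKM in at least 1 library and are called measured, and 5 were listed at 0 in both. Among the measured members, 44 were lower and 14 higher in TetTKO, while 51% of the 10984 genes measured in all were lower. The median difference, log2((TetTKO + 1)/(WT + 1)), was -0.23 for members and -0.01 for all measured genes. After scaling both libraries to the same upper quartile, 36 members were lower and 22 higher, so 62.1% were lower, and their median was -0.12. Of the 11067 genes measured under that scaling, 37.0% were lower, and their median was 0.10. The scaling raises TetTKO FPKM by 0.12 on the log2 scale, and the pseudocount makes the shift smaller for low genes. High expression went with lower values in general: the 907 genes of at least 100 FPKM had a median of -0.07, and the 40 members at that level had -0.24. In bulk RNA, fewer cells in S phase and less histone mRNA per cell cannot be told apart.

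The differences were small. The members at least 1.5-fold lower in TetTKO were Hist1h1b, Hist1h1t, Hist1h2ah, Hist1h3d and Hist4h4, which is 5 of 58, or 8.62%, against 5.23% of all measured genes. Only Hist1h2aa was at least 1.5-fold higher, against 6.53% of all measured genes. No member was 2-fold lower, against 0.847%, and Hist1h2aa was the only one 2-fold higher, against 1.77%, a call lost with a pseudocount of 5 FPKM. Under upper-quartile scaling 3 members were 1.5-fold lower, Hist1h1t, Hist1h3d and Hist4h4, and 2 were 1.5-fold higher, Hist1h2aa and Hist1h2ba. The shares of all genes past 1.5-fold were not computed under that scaling. Hist1h2ah, at 1.58 FPKM in TetTKO and 2.98 in WT, was the only called member close to the floor of 1 FPKM.

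**Figure D1:**
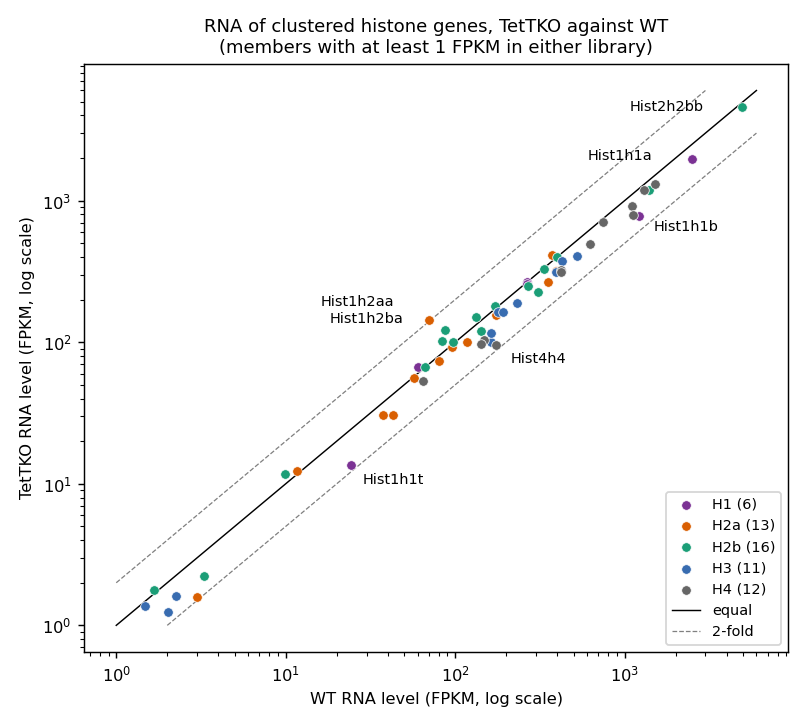
RNA level of each of the 58 measured members in TetTKO (vertical axis, FPKM, log scale) against WT (horizontal axis, FPKM, log scale), coloured by histone type, with lines of equal level and of a 2-fold difference. The points lie close to the line of equal level over 3 orders of magnitude, and Hist1h2aa lies on the upper 2-fold line. Hist1h2ah, a member of low level, Hist4h4 and Hist1h1t lie nearest to the lower one.

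Many members differ from each other at only a few bases, and reads of 50 bases cannot always be placed on one copy. At 1 of the 2 positions of Hist1h4n its interval, chr13:21903653-21903964, lies inside that of Hist1h4m, chr13:21903615-21904019, and the deposited values put 1320 FPKM in TetTKO and 1502 in WT on Hist1h4m and 0 in both on Hist1h4n. Hist1h2ad was listed at 0 in both libraries too, although its adjacent H2b gene Hist1h2bf had 102 FPKM in TetTKO and 83.1 in WT. How reads were assigned between copies or overlapping intervals is not given in the sources used here. Values of single members are therefore uncertain, and sums over a histone type depend less on that assignment.

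The linker histone H1 sits on the DNA between nucleosomes. H1 RNA summed to 3363 FPKM in TetTKO and 4335 in WT, a ratio of 0.776, and 4 of 6 members were lower. Hist1h1a, a somatic H1 gene, had 1983 FPKM in TetTKO and 2503 in WT, the highest H1 level in both. Hist1h1b, another somatic H1 gene, had 776 FPKM in TetTKO and 1216 in WT (log2 difference -0.65). Hist1h1c was at 266 FPKM in TetTKO and 265 in WT, and Hist1h1d at 258 in TetTKO and 266 in WT, so these somatic H1 genes were nearly level between the genotypes. Hist1h1e had the highest H1 difference, 66.4 FPKM in TetTKO and 60.1 in WT (0.14). Hist1h1a, Hist1h1b and Hist1h1c made up 89.95% of H1 RNA in TetTKO and 91.9% in WT. Under upper-quartile scaling the H1 members split evenly, 3 lower and 3 higher, while 37.0% of all measured genes were lower.

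H3 and H4, which form the tetramer at the centre of the nucleosome, were the types in which every measured member was lower in TetTKO as deposited, 11 of 11 for H3 and 12 of 12 for H4. Upper-quartile scaling left 10 of 11 and 11 of 12 lower. H3 RNA summed to 1828 FPKM in TetTKO and 2274 in WT, a ratio of 0.804, and H4 RNA to 6405 in TetTKO and 7780 in WT, a ratio of 0.823. Among H3 genes, Hist1h3g had the highest level, 407 FPKM in TetTKO and 521 in WT, followed by Hist1h3e with 373 in TetTKO and 425 in WT and Hist1h3f with 311 in TetTKO and 392.2 in WT. The log2 differences of H3 members of at least 5 FPKM ran from -0.70 at Hist1h3d, with 100.06 FPKM in TetTKO and 163.6 in WT, to -0.15 at Hist1h3a, with 163 in TetTKO and 180 in WT.

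Among H4 genes, Hist1h4m had 1320 FPKM in TetTKO and 1502 in WT, Hist1h4d had 1186 in TetTKO and 1310 in WT, and Hist1h4f had 914 in TetTKO and 1099 in WT. The smallest H4 difference was at Hist2h4, 709 FPKM in TetTKO and 749 in WT (log2 difference -0.08). The largest was at Hist4h4, 96.0 FPKM in TetTKO and 174 in WT (log2 difference -0.85). Hist4h4 lies on chromosome 6, where the median ratio of TetTKO to WT over genes of at least 5 FPKM was 0.691, and at 0.553 Hist4h4 was below that median. The part of the chromosome-wide shift in the Hist4h4 value was not tested. The H4 genes as a rule encode the same protein.

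H2A and H2B form the dimers at the outside of the nucleosome core. H2a RNA summed to 1691 FPKM in TetTKO and 1809 in WT, a ratio of 0.935, with 10 of 13 measured members lower. H2b RNA summed to 7829 FPKM in TetTKO and 8425 in WT, a ratio of 0.929, with 7 lower and 9 higher of 16, so its median log2 difference of 0.0061 and its sum differed in sign. Both sums changed sign under upper-quartile scaling, to log2 ratios of 0.02 for H2a and 0.01 for H2b, so their direction depends on the scaling. A single gene, Hist2h2bb, supplied 58.6% of H2b RNA in TetTKO and 58.3% in WT, at 4588 FPKM in TetTKO and 4915 in WT. It was the highest of all members in both libraries, and its promoter, printed above, holds an octamer close to the start. The next H2b genes were Hist1h2bb, with 1180 FPKM in TetTKO and 1401 in WT, and Hist1h2bg, with 402.2 in TetTKO and 401.8 in WT. The lowest H2b difference was at Hist1h2bk, 227 FPKM in TetTKO and 310.3 in WT (log2 difference -0.45).

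Among H2a genes the highest by the mean of both libraries was Hist1h2ak, 411 FPKM in TetTKO and 371 in WT, and it was above its WT level. Hist1h2ab followed with 319 FPKM in TetTKO and 395 in WT, where it was the highest, and Hist2h2ac with 267 in TetTKO and 352 in WT. The lowest H2a difference at 5 FPKM or more was at Hist1h2an, 30.6 FPKM in TetTKO and 42.8 in WT (log2 difference -0.47).

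**Figure D2:**
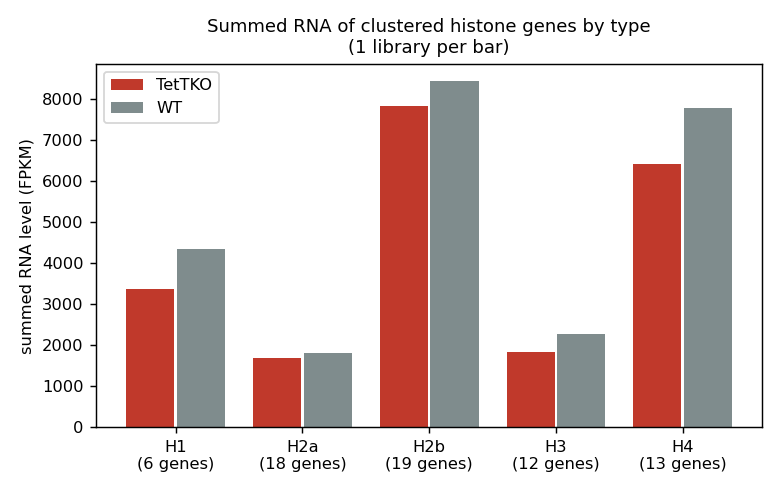
Summed RNA level (FPKM) of all members of each histone type in the TetTKO and WT libraries, 1 library per bar with no error bar. TetTKO bars are lower for every type as deposited, by a ratio of 0.776 for H1, 0.804 for H3 and 0.823 for H4, and by 0.935 for H2a and 0.929 for H2b.

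By cluster, Hist1 RNA summed to 15253 FPKM in TetTKO and 18222 in WT, a ratio of 0.837. Hist2 RNA summed to 5625 in TetTKO and 6078 in WT, a ratio of 0.925, most of it from Hist2h2bb and Hist2h4. In the Hist3 cluster, Hist3h2a had 73.2 FPKM in TetTKO and 80.3 in WT, Hist3h2ba had 67.0 in TetTKO and 66.5 in WT, and Hist3h2bb-ps, named as a pseudogene, had 1.77 in TetTKO and 1.68 in WT. The 3 together had a ratio of 0.957. Within Hist1, groups 1, 2 and 3 had ratios of 0.820, 0.816 and 0.835, while group 4, the testis-type pair, had 264 FPKM in TetTKO and 157 in WT, a ratio of 1.67. The Hist2 and Hist3 sums also changed sign under upper-quartile scaling, to log2 ratios of 0.0040 for Hist2 and 0.05 for Hist3.

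H2a and H2b genes often lie close together, many of them head to head around a shared promoter. The intervals of an H2a and an H2b row lay less than 1 kb apart in 16 combinations, taken by distance alone since the files give no strand, and some of them share a row. In 9 combinations both genes were measured, and in 6 of the 9 both differed in the same direction. Since 44 of the 58 measured members were lower, members that are not neighbours often share a direction too. That share was not computed, so the 6 of 9 cannot be read as a trait of pairs. The level was often unequal within a pair: Hist1h2ak had 411 FPKM in TetTKO and 371 in WT, and its partner Hist1h2bn had 11.7 in TetTKO and 9.91 in WT. Hist1h2bk had 227 FPKM in TetTKO and 310.3 in WT, beside 1.58 in TetTKO and 2.98 in WT for Hist1h2ah.

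**Figure D3:**
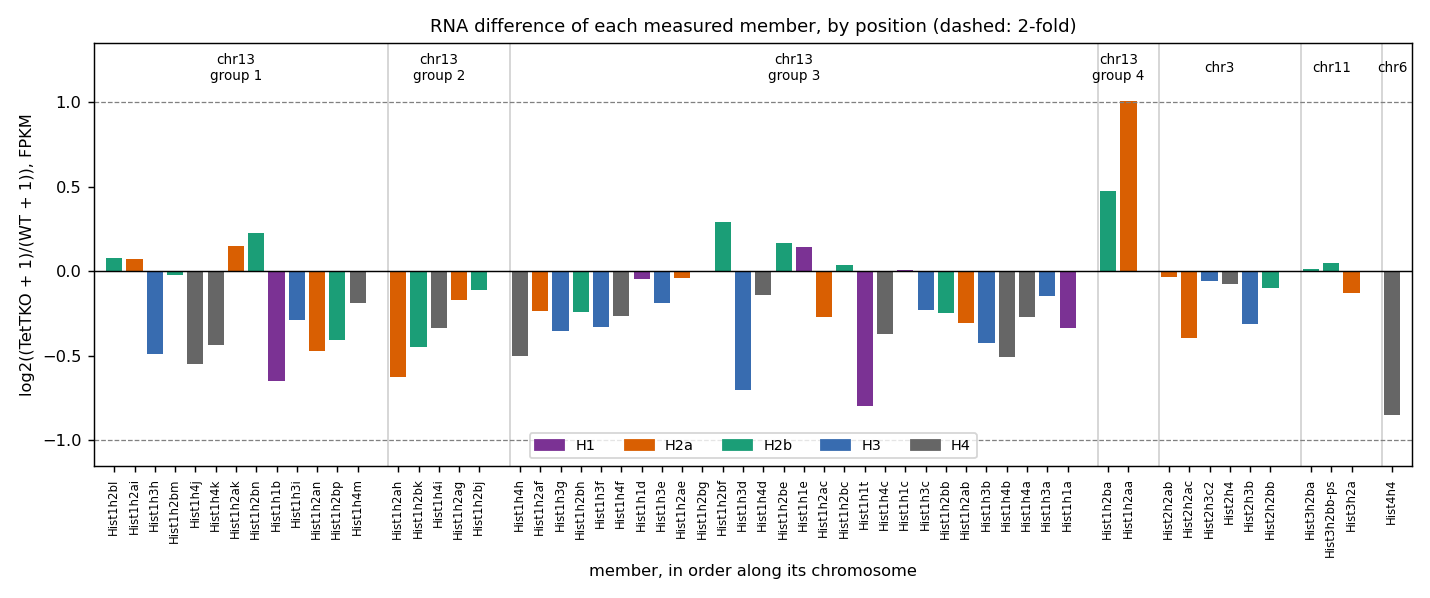
RNA difference of each measured member, log2((TetTKO + 1)/(WT + 1)) of FPKM, in order along its chromosome, coloured by histone type, with dashed lines at a 2-fold difference. H3 and H4 bars point down in every group that holds them. The 2 bars of group 4 on chromosome 13 point up, and the bar of Hist4h4 on chromosome 6 is the lowest.

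The testis-type genes were transcribed in both libraries. Hist1h2aa had 142 FPKM in TetTKO and 70.5 in WT (log2 difference 1.00, the largest positive difference of any member), and Hist1h2ba had 121 FPKM in TetTKO and 86.9 in WT (0.48), so both genes of the pair were higher in TetTKO. Hist1h1t went the other way, with 13.7 FPKM in TetTKO and 24.5 in WT (-0.79). Of 6 male germ cell markers, only Ddx4, an RNA helicase of germ cells, was measured, at 9.09 FPKM in TetTKO and 6.06 in WT. The transition protein and protamine genes Tnp1, Tnp2, Prm1 and Prm2 and the acrosomal gene Acrv1 were at or near 0 in both, between 0 and 0.16 FPKM in TetTKO and between 0 and 0.03 in WT.

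DNA methylation was taken as the share of methylated read calls over all CpGs in a member's interval plus 500 bp on each side, with an exact 95% binomial interval. These intervals cover counting error only and are too narrow even for that, since a read spans several CpGs and PCR copies are not independent. Of the 73 rows, 67 had at least 5 listed CpGs. The other 6 had none and belong to Hist1h2bq, Hist1h2br, Hist1h2ao and Hist1h2ap in the duplicated end of group 1. In 50 rows the window overlapped another row's window, so neighbouring values share reads.

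Histone loci were almost free of methylation in both genotypes, and most carried slightly more in TetTKO. Over the 67 rows the mean was 5.64% in TetTKO and 3.10% in WT, and the median 1.57% in TetTKO and 0.357% in WT, while the genome as a whole stood at 64.8% in TetTKO and 69.3% in WT. Under 1% methylation was found in 25 rows in TetTKO and in 50 rows in WT. Methylation was higher in TetTKO in 54 rows, lower in 8 and equal in 5, and 31.9% of all gene intervals and 34.8% of those of at most 2 kb were higher. Most short intervals in the genome are highly methylated, so the nearer set is short intervals under 10% in WT: 86.2% of those were higher in TetTKO. The 61 member rows under 10% in WT averaged 2.36% in TetTKO and 0.840% in WT, with 49 higher. The 305 short non-member intervals under 10% averaged 6.90% in TetTKO and 3.96% in WT, with 267 higher. The share of low-methylation rows that were higher was 80.3% for members, near that background, and the members started from a lower level.

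The rows at least 10 points higher in TetTKO were 3 of 67 against 2.82% of all gene intervals and 5.87% of those of at most 2 kb, and they were the 3 testis-type genes. No member was 10 points lower, but 61 of the 67 rows were under 10% in WT and so could not fall by 10 points. The shares of 8.62% of all gene intervals and 28.4% of those of at most 2 kb are thus no like background for that count. Hist1h2ba, chr13:24025642-24026025, was at 52.1% in TetTKO (46.4 to 57.7%) and 23.3% in WT (18.8 to 28.4%) over 39 CpGs. Hist1h2aa, chr13:24026331-24026720, was at 49.5% in TetTKO (43.5 to 55.5%) and 27.3% in WT (22.5 to 32.5%) over 37 CpGs. Hist1h1t, chr13:23787680-23788591, was at 44.5% in TetTKO (38.4 to 50.7%) and 26.3% in WT (20.7 to 32.5%) over 27 CpGs. For all 3 the TetTKO and WT intervals did not overlap. These loci were thinly covered: with only CpGs of at least 10 reads in both libraries, Hist1h1t kept 2 CpGs and Hist1h2ba and Hist1h2aa 1 each, too few for a value, and the 2 rows then at least 10 points higher were Hist1h1a and Hist2h2be.

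These loci were also poorer in CpGs than most of the family. With 1.41 CpGs per 100 bp at Hist1h1t, 2.66 at Hist1h2aa and 2.82 at Hist1h2ba, they were below the median of 3.64 over the other 64 rows, and above the median of 0.672 for short non-member intervals. A gain of 10 points was common at that starting level: of 54 short non-member intervals with 20 to 30% methylation in WT and at least 25 CpGs, 19 were at least 10 points higher in TetTKO and none 10 points lower, with a mean difference of 7.42 points.

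Counting each CpG of the pair once, the Hist1h2ba and Hist1h2aa locus, chr13:24025142-24027220, was at 54.6% in TetTKO (49.8 to 59.4%) and 28.3% in WT (24.2 to 32.7%) over 56 CpGs. The 305 bp between the genes, which hold their shared promoter, were at 37.9% in TetTKO (25.5 to 51.6%) and 18.8% in WT (10.9 to 29.0%) over 8 CpGs, and these intervals overlapped slightly. Inside Hist1h2ba methylation was 58.7% in TetTKO and 19.7% in WT, and inside Hist1h2aa 47.5% in TetTKO and 22.7% in WT. The pair thus had both more methylation and more RNA in TetTKO. At Hist1h1t, the interval itself was at 36.3% in TetTKO (29.3 to 43.7%) and 16.2% in WT (11.03 to 22.5%). The 500 bp on its left, the upstream side by the RefSeq strand, differed less, 62.5% in TetTKO and 59.2% in WT over 6 CpGs. At Hist1h1t, more methylation of the interval thus stood beside less RNA.

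**Figure D4:**
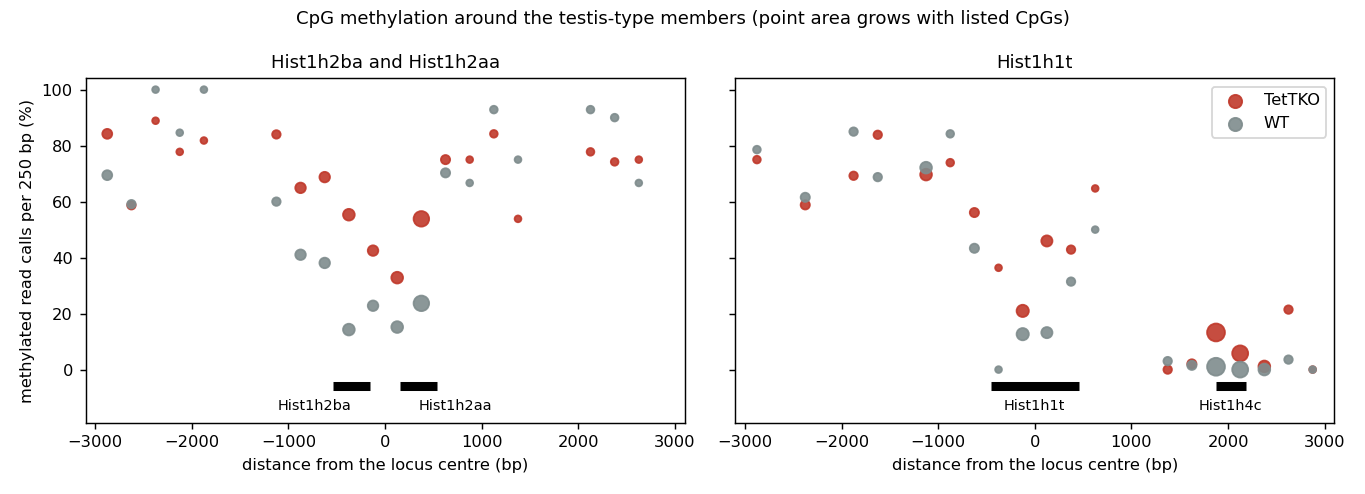
CpG methylation (percent of methylated read calls, bins of 250 bp, point area growing with the number of listed CpGs) in TetTKO and WT against distance in bp from the centre of the Hist1h2ba and Hist1h2aa locus and of Hist1h1t, with black bars for the gene intervals. TetTKO points lie above WT points across the central dip of each locus, where Hist1h2ba reaches 58.7% in TetTKO and 19.7% in WT, while points more than 1 kb from the centre are high in both genotypes except around Hist1h4c.

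A further 3 members were at 20% or more in either library, and all have long intervals. Hist1h2be, whose interval spans 37455 bp (chr13:23675539-23712993), was at 42.5% in TetTKO and 43.8% in WT, the lowest difference of any member at -1.27 points. The 500 bp on either side of its right end were at 3.15% in TetTKO and 1.11% in WT, and its inner stretch was at 47.1% in TetTKO and 47.6% in WT, so the value comes from the inner stretch. Hist1h2bc, over 8282 bp, was at 23.0% in TetTKO and 21.4% in WT. Hist2h2be, over 2618 bp and with only 0.37 FPKM in TetTKO and 0.74 in WT, was at 22.8% in TetTKO (20.3 to 25.4%) and 14.1% in WT (12.0 to 16.4%). At Hist2h2be the difference lay in the inner stretch, chr3:96025544-96027161, at 48.6% in TetTKO (42.8 to 54.5%) and 21.7% in WT (17.3 to 26.6%) over 27 CpGs, while its left end, facing Hist2h2ac, was at 3.09% in TetTKO and 0.537% in WT.

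Hist1h4c, which lies next to Hist1h1t, had the fifth largest difference, 8.61% in TetTKO (6.54 to 11.1%) and 0.818% in WT (0.266 to 1.90%) over 53 CpGs, and its interval alone was at 10.8% in TetTKO and 0.251% in WT. The 12 CpGs between Hist1h1t and Hist1h4c were at 10.96% in TetTKO (6.40 to 17.2%) and 4.09% in WT (1.66 to 8.25%). Hist1h4c RNA was 324 FPKM in TetTKO and 419.7 in WT. The lowest differences after Hist1h2be were small, from -0.28 points at Hist1h4h to -0.11 points at Hist2h3c1. Hist1h4h had 0 of 1231 calls methylated in TetTKO, which allows a share of up to 0.244% by a limit of 3 calls and 0.299% by the exact interval, and it had 0.276% in WT (0.0570 to 0.805%), so the exact intervals overlapped. Hist2h2aa2 at the first of its 2 positions was at 0.307% in TetTKO and 0.576% in WT, Hist1h3a at 0.205% in TetTKO and 0.338% in WT, and Hist2h3c1 at 5.23% in TetTKO and 5.34% in WT.

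The 95% intervals of TetTKO and WT did not overlap in 24 rows, all of them higher in TetTKO. The same count was not made over other gene intervals, so it has no background share here. The intervals are too narrow, as said above, and rows with overlapping windows, such as Hist1h2ba and Hist1h2aa, share reads. The 24 rows are thus a description and not a count of separate loci. Of the 24 rows, 23 had measured RNA, and 18 of the 23 were lower in RNA, with a median log2 difference of -0.25. Of the 35 measured members whose intervals overlapped, 26 were lower, with a median of -0.19. RNA was thus mostly lower in TetTKO whether or not methylation could be told apart at this depth, and the difference between the 2 classes was not tested. By type, mean methylation was 11.6% in TetTKO and 6.03% in WT for H1, 4.81% in TetTKO and 2.48% in WT for H2a, and 9.94% in TetTKO and 6.38% in WT for H2b. It was 1.55% in TetTKO and 0.953% in WT for H3, and 2.45% in TetTKO and 0.478% in WT for H4. H3 and H4, whose measured members were all lower in RNA as deposited, had the lowest mean methylation of the 5 types in both genotypes. The means of the other types were raised by a few members, and by median H2a was at 1.15% in TetTKO and 0.337% in WT, H3 at 1.10% in TetTKO and 0.418% in WT, and H4 at 0.964% in TetTKO and 0.263% in WT.

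**Figure D5:**
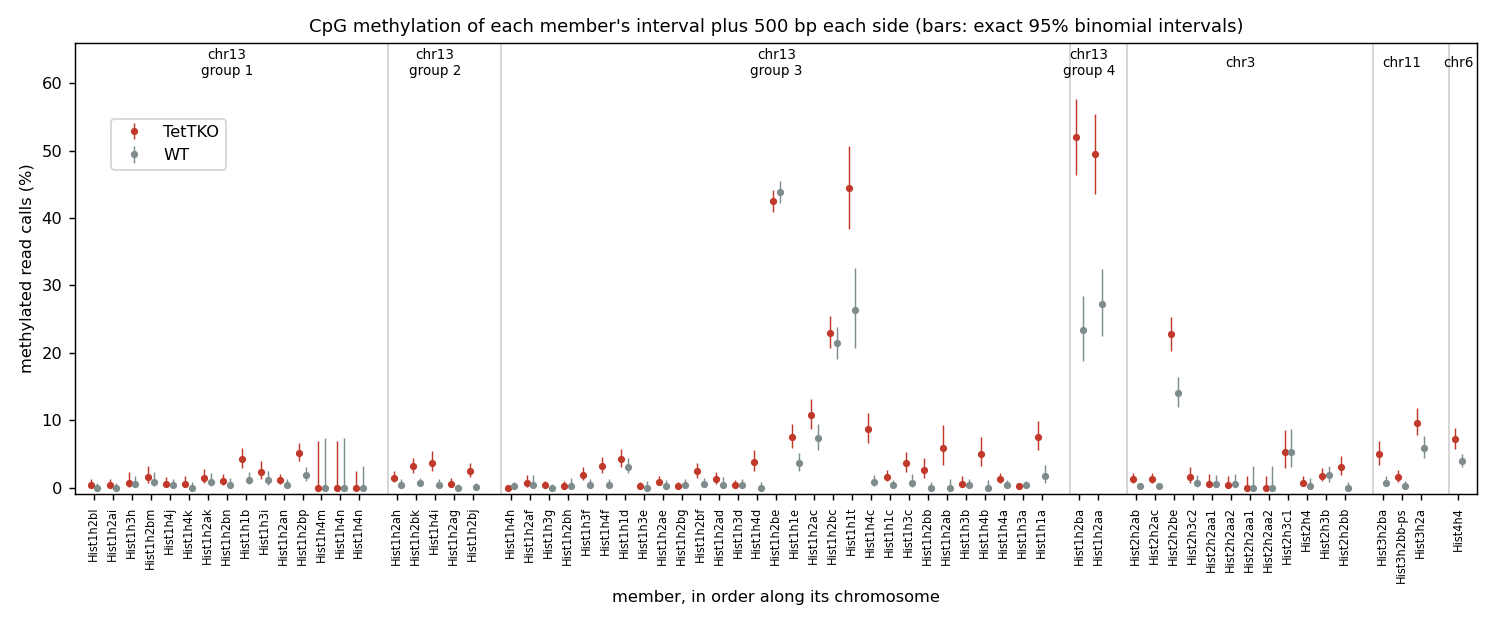
CpG methylation (percent of methylated read calls) of the interval plus 500 bp each side for the 67 rows with at least 5 CpGs, in order along the chromosomes, with TetTKO and WT points and exact 95% binomial intervals. Nearly all points lie below 10% in both genotypes, the testis-type genes stand at 44.5 to 52.1% in TetTKO and 23.3 to 27.3% in WT, and Hist1h2be at 42.5% in TetTKO and 43.8% in WT.

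Replacement histones are not restricted to S phase, and their genes lie apart from the clusters and mostly have ordinary polyadenylated mRNAs. Of the 15 examined, 11 were measured and 10 of them were lower in TetTKO, with a median log2 difference of -0.40, and the same number was lower under upper-quartile scaling, with a median of -0.29. H2afz, which encodes H2A.Z, had 1480 FPKM in TetTKO and 2060 in WT (-0.48). H3f3a, which encodes H3.3, had 439.8 FPKM in TetTKO and 477 in WT (-0.12). The largest difference was at H2afj, 16.5 FPKM in TetTKO and 35.2 in WT (-1.05), a gene on chromosome 6 like Hist4h4.

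The genes that transcribe, cleave and stabilise histone mRNA showed no common direction: of 19 measured, 9 were lower and 10 higher, with a median of 0.06, and upper-quartile scaling gave 5 lower and 14 higher. Slbp, the stem-loop binding protein, had 107 FPKM in TetTKO and 144 in WT (-0.43). Srrt (ARS2) had 102 FPKM in TetTKO and 114 in WT (-0.16). Lsm11, a subunit of the U7 snRNP that directs 3′ end cleavage, had the largest difference, 3.72 FPKM in TetTKO and 2.45 in WT (0.45). None of the 19 differed by 1.5-fold on this scale.

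Because histone mRNA follows S phase, genes of DNA replication were set beside it. Of 31 S phase genes, 23 were lower in TetTKO, with a median log2 difference of -0.11. Under upper-quartile scaling 13 were lower and 18 higher, with a median of 0.0078, where the median of all measured genes was 0.10. Pcna, the replication clamp, had 468 FPKM in TetTKO and 568 in WT (-0.28), and Tipin, a replication fork protein, had 238 in TetTKO and 251 in WT (-0.08). Ccne1, which encodes the G1/S cyclin E1, had the largest difference, 84.3 FPKM in TetTKO and 138 in WT (-0.70). Of 20 genes of G2 and mitosis, 11 were lower and 9 higher, with a median of -0.04, and upper-quartile scaling gave 7 lower and 13 higher. The medians of both lists lay nearer to 0 than that of the histone members, -0.23 as deposited, and their part in the histone values was not tested.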

How the data were processed

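WGBS and RNA-seq of TetTKO and WT cells gave 1 library each per genotype. Per the labels' protocols, RNA depleted of ribosomal RNA was made into directional libraries and read as single 50 bp reads, and bisulfite libraries were read as pairs of 110 bp. The submitters' processing notes name TopHat2 2.0.2, Cufflinks 2.0.2, Bismark 0.7.9, SAMtools, Bowtie and Trim Galore on the mm9 build, without settings. The deposited RNA values are FPKM per gene interval, as the authors normalized them. FPKM gives no read counts, so the depth of the RNA libraries is unknown here and no interval can be given. The deposited methylation files hold, per CpG with at least 5 reads, a methylated fraction with its methylated and total read counts, and these deposited counts were used. The assay does not separate 5-methylcytosine from 5-hydroxymethylcytosine. The files give no strand, exons or UTRs.

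FPKM of rows with one symbol were summed. Differences are log2((TetTKO + 1)/(WT + 1)), a scale with a pseudocount of 1 FPKM that understates differences of low genes. A gene was measured at 1 FPKM or more in either library. Methylated calls were pooled over CpGs of an interval with 500 bp each side, with at least 5 CpGs. Python 3.11.15, numpy 2.4.6, pandas 2.3.3, scipy 1.17.1 and matplotlib 3.10.9 were used, and the calculations were tested on simulated data. Start coordinates are 1-based. Promoters are RefSeq's.

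The members, gene lists and rules were chosen with earlier results of these data known. Named per type were the 3 members of highest mean FPKM and, at 5 FPKM or more, those of highest and lowest difference. All Hist3, Hist4 and testis-type members were named too. For methylation, members of at least 20% in either library and the 5 highest and 5 lowest differences were named, and for other lists the 2 genes of highest FPKM and the one of largest difference. Members in counts of 5 or fewer, partners of a pair and Hist1h4n and Hist1h2ad were named after their values were seen. Alternatives were other pseudocounts, filters, scalings, windows, coverage limits and left-out members.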

Additional observations from a re-analysis of the deposited data

How the results depend on the processing

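No paired analysis was possible because each group had 1 library and no replicate numbers. An RNA median or ratio counts as moved past 0.1 on the log2 scale, a tolerance set here because FPKM gives no interval. A methylation mean or median counts as moved past 0.39 points, the combined counting error of both libraries over the pooled CpGs of all windows. A count of members counts as moved when it changes by more than 1.5-fold, or to or from 0. Of 126 recomputed values, 102 stayed within these limits. Some of them could hardly move, such as the count of members 10 points lower, since 61 of 67 rows were under 10% in WT. Treating the rows of a symbol apart also changed little, since the symbols with several rows had almost no RNA. The 102 is therefore no measure of robustness. Scaling to the upper quartile gave a median member difference of -0.12, 3 members 1.5-fold lower and 2 higher, and log2 ratios of summed FPKM of -0.25 for H1, -0.20 for H3, -0.16 for H4, -0.14 for Hist1 and -0.74 for Hist4. It reversed the sums of H2a (0.018), H2b (0.010), Hist2 (0.0040) and Hist3 (0.052), each a ratio near 1. Hist3 without its most abundant member was reversed too (0.012). With a pseudocount of 5 FPKM, 0 members were 2-fold higher. Without the testis-type genes, left out after the data were seen, 0 members were 1.5-fold or 2-fold higher in RNA, 0 were 10 points higher in methylation, and the mean methylation difference was 1.58 points. With the interval alone, 6 members were 10 points higher, Hist2h2be, Hist1h4c and Hist1h1a besides the testis-type genes, with a mean difference of 3.52 and a median of 1.46 points. Flanks of 1000 bp gave a median of 1.60 points. Coverage of at least 10 gave a median of 1.61 with 2 members 10 points higher, neither a testis-type gene. With each CpG counted once, the pooled calls of all windows were 8.67% methylated in TetTKO and 7.17% in WT, a difference of 1.503 points. That is a pooled share and not a mean over rows, so long intervals such as Hist1h2be weigh more in it. Hist4 without its only member gave no value, nor did counts and medians over merged windows. The cause of these shifts was not tested, beyond the fewer members or CpGs that an alternative keeps. With 1 library per genotype, differences between clones, cultures and library preparations cannot be told apart from the genotype.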

Other observations

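The genes interspersed among the Hist1 members were mostly silent and heavily methylated. Of 51 such symbols, largely vomeronasal receptor genes of the Vmn1r family, 3 were measured. Abt1, which encodes an activator of basal transcription, had 44.3 FPKM in TetTKO and 18.01 in WT (log2 difference 1.25), more than any histone member differed. The zinc finger gene Zfp322a had 9.91 FPKM in TetTKO and 15.4 in WT (-0.59), and Zfp184 had 6.57 in TetTKO and 6.73 in WT (-0.03). The 42 neighbour intervals with at least 5 CpGs averaged 63.3% methylation in TetTKO and 71.4% in WT, and 35 of them were lower in TetTKO. Over all gene intervals 14844 of 21822 were lower, and of those of at most 2 kb 1438 of 2214. Both sets include intervals of low methylation, which can hardly fall, so they are no like background for neighbours that started high. A set matched by WT level was not made.

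Histone chaperones, which carry histones to DNA, showed no common direction: of 19 measured, 12 were lower and 7 higher in TetTKO, with a median log2 difference of -0.01, and upper-quartile scaling gave 3 lower and 16 higher. Npm1, nucleophosmin, had 3619 FPKM in TetTKO and 2933 in WT (0.30). Nasp, a chaperone of H1 and H3-H4, had 252 FPKM in TetTKO and 327 in WT (-0.37). Atrx, which deposits H3.3 at repeats with Daxx, had the largest difference, 27.9 FPKM in TetTKO and 18.2 in WT (0.59). Among genes of G2 and mitosis, Ccnb1, which encodes cyclin B1, had 271 FPKM in TetTKO and 328 in WT (-0.27), Top2a, topoisomerase II alpha, had 264 in TetTKO and 235 in WT (0.16), and the largest difference was at the checkpoint kinase gene Bub1, 54.0 in TetTKO and 38.7 in WT (0.47).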
